A study of Homo sapiens with 8 samples.

Results

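Mucins and trefoil factors are the proteins that coat and protect the mucosal surface, and their messenger RNAs were followed in 2 human colorectal cancer cell lines after knockdown of peroxiredoxin II (PrxII, encoded by PRDX2). The group was set by name as 10 genes, MUC1, MUC2, MUC4, MUC5AC, MUC5B, MUC13, MUC20, TFF1, TFF2 and TFF3, of which 9 were measured among 25192 gene symbols. MUC5AC was not analysed here. The study asked what PrxII, an enzyme that removes hydrogen peroxide, does in colorectal cancer cells with truncated APC, and HT29 and SW480 are established lines of this kind. HT29 cells were kept in McCoy's 5A and SW480 cells in RPMI1840, each with fetal bovine serum. Each line was transfected with control siRNA (siCon) or siRNA against PRDX2 (siPrdx2), RNA was taken at 36 h, and each of the 4 groups holds 2 libraries. The study speaks of duplicate experiments without saying whether these were separate transfections, so p-values measure only the spread between these libraries, which may be technical.

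Membrane mucins such as MUC1, MUC4 and MUC13 are anchored in the apical membrane of epithelial cells and carry a heavily O-glycosylated extracellular domain. MUC2 and MUC5B are secreted, gel-forming mucins that polymerise through disulfide bonds, and MUC2 is the main gel former of the colon, where goblet cells secrete it. Trefoil factors are small secreted peptides released together with mucins. TFF1 and TFF2 are known mainly from the stomach, and TFF3 from intestinal goblet cells.

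Library totals ran from 8857442 to 10164137 expected counts, and 3 counts were worth 0.295 to 0.339 CPM, that is, counts scaled to a common library size. PRDX2 was at 148.1 to 153.8 CPM with siCon and 82.4 to 83.2 CPM with siPrdx2 in HT29 cells, and at 209.1 to 246.1 and 69.5 to 70.7 CPM in SW480 cells. It was called lower after its siRNA in both lines, at -0.87 (SE 0.049) on the log2 scale in HT29 cells and -1.70 (SE 0.12) in SW480 cells. The summed TPM (a level scaled for transcript length and library total) of 10 colorectal epithelium markers was 18389 to 18507 in HT29 siCon, 17245 to 17348 in HT29 siPrdx2, 10139 to 10927 in SW480 siCon and 9876 to 9886 in SW480 siPrdx2. The 8 goblet cell markers include MUC2 and TFF3. They summed to 935.9 to 975.9 TPM in HT29 siCon and 830.9 to 872.1 TPM in HT29 siPrdx2. These HT29 sums were mostly AGR2, at 871.9 to 916.7 TPM in siCon and 784.8 to 823.8 TPM in siPrdx2. MUC2 was at 1.40 to 1.78 TPM in HT29 libraries, ZG16 was at 0 there, and CLCA1 was at 0 in HT29 siPrdx2. In SW480 libraries the 8 markers summed to between 1.08 and 2.19 TPM, and ATOH1, SPDEF, CLCA1 and AGR2 were at 0. The defining immune gene PTPRC was at 0 in both lines, as was the fibroblast gene DCN, and of the endothelial genes CDH5 was at 0 in HT29 and PECAM1 in SW480 libraries. Other genes of these lists were expressed, with CD68 at 12.6 to 27.9 TPM, CD14 at 2.94 to 9.22 TPM and COL1A1 at 1.04 to 9.33 TPM. CD68 was called lower in HT29 siPrdx2 (-0.40 on the log2 scale, adjusted p = 0.0210, edgeR), where 17.6% of all genes were called. DESeq2 and limma did not call CD68. The summed levels of the immune, fibroblast and endothelial lists were at most 37.2, 10.5 and 1.96 TPM. The SW480 siCon duplicates stood apart from the other pairs. The difference between them followed transcript GC content across genes with a Spearman rho of 0.71, against 0.13 to 0.19 in the other 3 pairs, so results that rest on single SW480 libraries are given without them.

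MUC13, a membrane mucin of the gastrointestinal epithelium, was the member on which the knockdown results turn. The 250 bases upstream of an annotated start (RefSeq, GRCh38.p14, chr3:124934752-124935001, minus strand, 41.6% GC) are printed to show a promoter annotated for the member that changed. Use of this start in these cells was not tested. Capitals mark, in order, the HNF1-type motif GTTAAT on the reverse strand, the AP-1 element TGAGTCA and the cyclic AMP response element TGACGTCA.

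MUC13: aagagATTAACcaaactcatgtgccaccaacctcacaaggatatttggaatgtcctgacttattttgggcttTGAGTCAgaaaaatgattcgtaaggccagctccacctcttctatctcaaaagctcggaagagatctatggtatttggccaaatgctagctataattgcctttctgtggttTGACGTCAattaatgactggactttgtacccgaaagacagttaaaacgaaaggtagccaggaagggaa

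The letters TGAGTCA lay from -178 to -172 and TGACGTCA from -68 to -61, counted back from the start. Searched on both strands, TGAGTCA occurred in 4.20% of 35116 windows of this length, TGACGTCA in 1.65% and GTTAAT in 6.23%. The TCF/LEF cores CTTTGAT and CTTTGTT, present in 2.26% and 4.50% of windows, and the antioxidant response core TGACNNNGC, present in 10.9%, were not in this window. No other TCF/LEF-type letters were searched, and the window holds CTTTGTA, which differs from CTTTGTT in its last letter. No searched motif was in the windows of MUC1, MUC2 or MUC4, the other members with a promoter in the table. The marked motifs do not overlap each other, and the motifs were chosen with the sequence in view.

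In the siCon libraries MUC13 was the most abundant member in both lines. Its TPM was 152.1 and 148.1 in HT29 cells, higher than that of 95.5% of all genes, and 42.8 and 42.4 in SW480 cells. In HT29 siCon the group mean TPM then ran from MUC20 through TFF3, TFF1, MUC1, MUC2 and TFF2 to MUC4 and MUC5B. MUC2 and TFF2 overlapped in that order, as did MUC4 and MUC5B, whereas the other neighbours were separate in both libraries. In SW480 siCon the order was MUC13, MUC1, TFF2, TFF3, MUC20, MUC4, MUC2, MUC5B and TFF1, and TFF2 and TFF3, like each pair of neighbours from MUC20 to MUC5B, overlapped or met. TFF1 was listed at 0 in all 4 SW480 libraries.

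**Figure D1:**
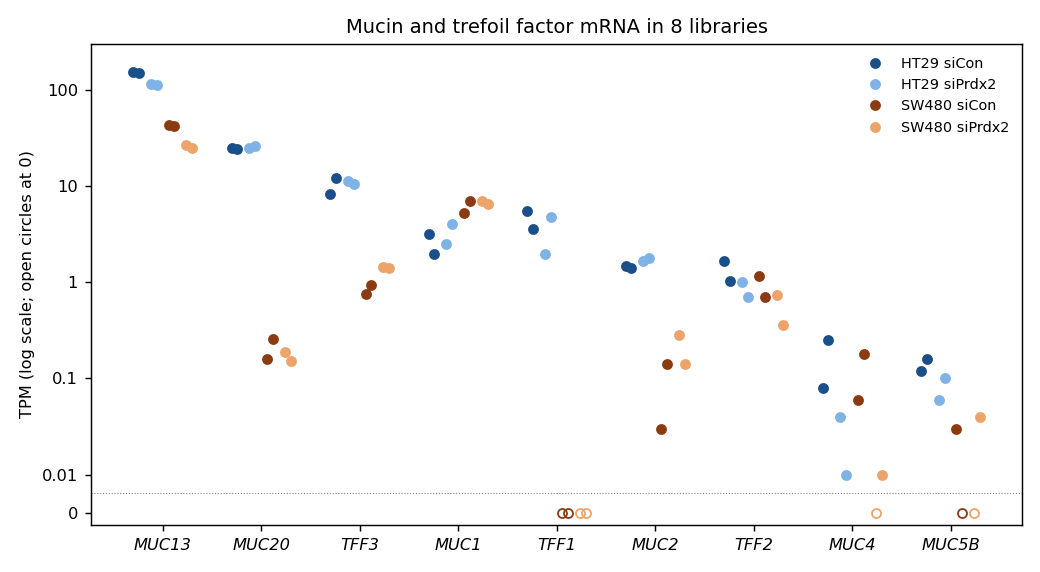
TPM on a log scale (y axis) of 9 mucin and trefoil factor genes (x axis) in each of 8 libraries, coloured by group, with open circles for libraries at 0. MUC13 is the highest gene in every library, MUC20 is between 24.1 and 26.0 TPM in HT29 libraries and at most 0.26 TPM in SW480 libraries, and TFF1 is at 0 in SW480 libraries.

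MUC13 therefore made up most of the summed TPM of the 9 members, with 77.2% and 76.9% in HT29 siCon and 85.1% and 82.1% in SW480 siCon. After knockdown the sum was 160.1 and 161.3 TPM in HT29 cells, against 197.2 and 192.5 TPM in siCon, and 36.3 and 33.7 TPM in SW480 cells, against 50.3 and 51.6 TPM. The siPrdx2 libraries lay below the siCon libraries in both lines. The MUC13 share was then 72.7% and 70.3% in HT29 cells and 73.6% and 74.5% in SW480 cells.

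In HT29 cells MUC13 was the 1 member of 6 tested that was called after PRDX2 knockdown, and it fell. The gene lies on chromosome 3 of GRCh37 from 124624289 to 124672663 on the minus strand. It had 1961 and 1879 expected counts in the siCon libraries and 1507 and 1369 in the siPrdx2 libraries, or 152.1 and 148.1 TPM against 116.5 and 113.4 TPM. Both siPrdx2 libraries were below both siCon libraries, and the gap exceeded the spread within each pair. The log2 fold change was -0.45 (SE 0.042, 95% interval -0.54 to -0.36, Benjamini-Hochberg adjusted p = 5.76e-07 from the quasi-likelihood test of edgeR), which is 26.8% lower with an interval from 22.2% to 31.1%. Of the 12961 genes tested in HT29 cells, 17.6% were called, 7.76% higher and 9.82% lower, so that 1 of 6 members was near the background share. On the TPM scale limma called 1252 genes higher and 548 lower, against 1006 and 1273 with edgeR, and MUC13 was lower on both scales. In bulk libraries fewer cells with a transcript and less transcript per cell cannot be told apart. The epithelial keratins KRT8, KRT18 and KRT19 were also called lower in these libraries and KRT20 and CDX2 higher, with KRT20 at 558.9 and 546.0 TPM in siCon and 769.8 and 747.6 TPM in siPrdx2. The other 5 of the 10 epithelial markers were not called. The part of these shifts in the MUC13 result was not tested.

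In SW480 cells MUC13 was again called lower, here with a larger estimate and a larger error. It had 478 and 517 expected counts in siCon and 317 and 303 in siPrdx2, or 42.8 and 42.4 TPM against 26.8 and 25.1 TPM. Both siPrdx2 libraries again lay below both siCon libraries. The log2 fold change was -0.81 (SE 0.12, 95% interval -1.08 to -0.53, adjusted p = 0.0146, edgeR), or 42.8% lower with an interval from 30.7% to 52.8%. Of 14112 genes tested, 3.3% were called, 1.22% higher and 2.08% lower, beside 1 of the 2 members tested. limma on log2(TPM + 1) called 126 genes higher and 88 lower, against 172 and 294 with edgeR. Without the first or the second siPrdx2 library the log2 fold change was -0.85 or -0.76 and the call was lost. In SW480 fits with 1 siPrdx2 library the spread comes from the siCon pair alone, the pair that stood apart. Without the first or the second siCon library the log2 fold change was -0.81 in each and remained called. With an offset for GC content fitted to each library the log2 fold change was -0.71 (adjusted p = 0.000757, edgeR). The transcript of MUC13 has 44.7% GC, the lowest of the 9 members. Of 7 epithelial markers tested in SW480 cells, KRT18 was called lower (-0.37 on the log2 scale, adjusted p = 0.0210, edgeR), and its part in the MUC13 result was not tested.

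All 8 libraries were then fitted together to ask whether the fall of MUC13 differed by line. The HT29 effect minus the SW480 effect was 0.36 on the log2 scale (SE 0.11, 95% interval 0.12 to 0.59), with an unadjusted p = 0.00650 and an adjusted p = 0.123 in edgeR's test across 14772 genes. None of the 6 members tested was called by edgeR, DESeq2 or limma (0 of 6), beside 1.12% of all genes called by edgeR. DESeq2 gave no adjusted p for MUC1, MUC2, MUC5B and TFF3, so it could not call them. With edgeR 1 of the 6 (MUC13) had an unadjusted p under 0.05, beside 19.2% of all genes. MUC2, MUC5B, MUC20 and TFF3 had at most 10 counts in any SW480 library. Their SEs here were 0.68, 1.63, 0.49 and 0.62, so their lack of a call says little about whether the lines differ. Without the first or the second SW480 siCon library the difference for MUC13 was 0.36 or 0.35, and in these fits it was called. Each leaves 1 library in that group, so the call rests on the spread within the other groups. Over all single libraries left out the difference for MUC13 ran from 0.30 to 0.40. With the GC offset it was 0.23 and was not called (adjusted p = 0.119, edgeR). The siRNA effect on PRDX2 itself was called different between the lines, by 0.84 (SE 0.12, adjusted p = 0.0128, edgeR), with a larger fall in SW480 cells. Over all 8 libraries, the genes with the most similar log2(CPM + 1) to MUC13 were the ribosomal protein genes RPS12 (Pearson r of 0.999) and RPL30 (r of 0.998) among 10301 genes, a description in which the difference between the lines weighs heavily.

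**Figure D2:**
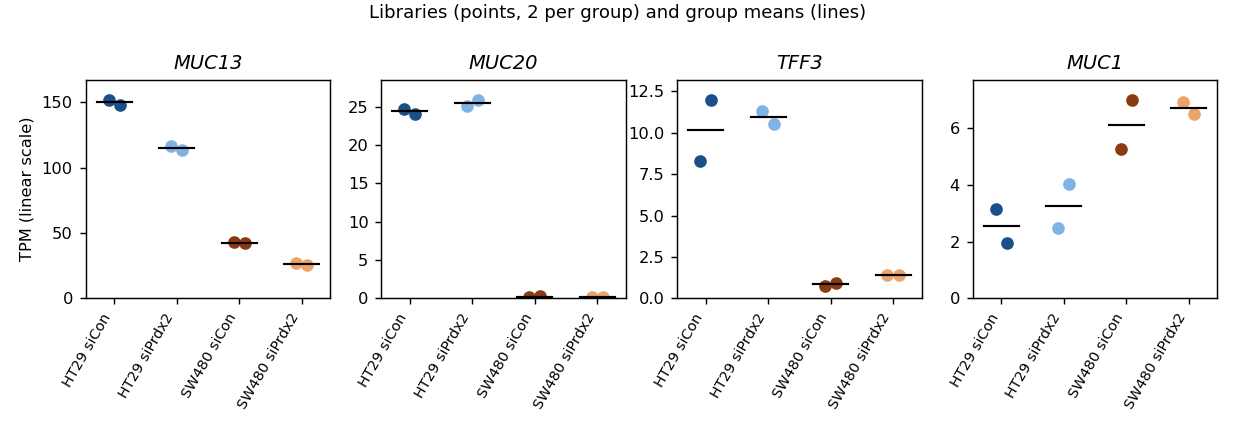
TPM on linear axes from 0 (y axis) of MUC13, MUC20, TFF3 and MUC1 in the 4 groups (x axis), with points for the 2 libraries and a line for their mean. MUC13 is lower in siPrdx2 than in siCon libraries of both lines, MUC20 and TFF3 are high in HT29 cells only, and MUC1 is higher in SW480 cells.

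Of the other membrane mucins, MUC20 showed nearly equal levels with and without knockdown in HT29 cells. It encodes a membrane-associated mucin and lies on chromosome 3 of GRCh37 from 195447755 to 195467994 on the plus strand. It had 696 and 668 counts in HT29 siCon and 710 and 684 in HT29 siPrdx2, at 24.8, 24.1, 25.1 and 26.0 TPM. The estimate lay close to 0, with a log2 fold change of -0.0003 (SE 0.055) and a 95% interval from -0.12 to 0.12, and its sign turned with the setting. In SW480 libraries MUC20 had 4, 7, 5 and 4 counts and was under the count filter of the knockdown test. MUC20 shares sequence with the pseudogene MUC20P1 on the same chromosome and overlaps the long non-coding RNA MUC20-OT1 on the same strand. MUC20-OT1 has no row under this symbol, but older symbols were not searched, and a row for MUC20P1 was not looked for. The counts of MUC20 may include reads of these.

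MUC1, the most widely expressed epithelial membrane mucin, had low counts in both lines and was the one tested member with a higher level in SW480 cells. It is on chromosome 1 of GRCh37 from 155158300 to 155162707 on the minus strand. In HT29 cells it had 23 and 15 counts in siCon and 20 and 26 in siPrdx2, at 3.14, 1.95, 2.48 and 4.04 TPM. In SW480 cells it had 36 and 51 counts in siCon and 42 and 45 in siPrdx2, at 5.26, 7.02, 6.95 and 6.51 TPM. The groups overlapped in both lines. The log2 fold change after knockdown was 0.24 (SE 0.33, 95% interval -0.45 to 0.94) in HT29 cells and -0.12 (SE 0.24, 95% interval -0.67 to 0.43) in SW480 cells, with adjusted p = 0.679 and 0.788 (edgeR). A protein-coding gene without a row under this name, ENSG00000273088, overlaps MUC1 on the same strand over 1449 bases, so reads may be shared between them.

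MUC4, a large membrane mucin next to MUC20 on chromosome 3 (195473636 to 195538844, minus strand), was close to the limit of detection. It had 3 and 6 counts in HT29 siCon, 3 and 1 in HT29 siPrdx2, 1 and 3 in SW480 siCon and 0 and 1 in SW480 siPrdx2, and it was under the count filter in each comparison. The ratio of siPrdx2 to siCon counts per total was 0.443 in HT29 cells (exact 95% interval for counting error only, 0.0997 to 1.59) and 0.238 in SW480 cells (0.0048 to 2.40). Its effective length, as RSEM estimated it from the mix of transcripts, ran from 3886 to 16754 nt between libraries, so its TPM moved with that estimate as well as with the count. The neighbouring MUC20 was at 24.4 TPM ± 0.47 (SD, n = 2) in HT29 siCon, where MUC4 was at 0.165 TPM ± 0.12 (SD, n = 2).

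The secreted gel-forming mucins were low in HT29 cells and at single counts in most SW480 libraries. MUC2, on chromosome 11 of GRCh37 from 1074875 to 1104416 on the plus strand, had 58 and 54 counts in HT29 siCon and 65 and 65 in HT29 siPrdx2, at 1.48, 1.40, 1.66 and 1.78 TPM. Although both siPrdx2 values were above both siCon values, the log2 fold change of 0.18 (SE 0.18, 95% interval -0.20 to 0.57) did not pass the test (adjusted p = 0.549, edgeR). In SW480 cells MUC2 had 1 and 5 counts in siCon and 10 and 5 in siPrdx2, a ratio per total of 2.38 with an exact interval of 0.872 to 7.48. MUC5B, the gel former of the airways, lies on the same chromosome from 1244296 to 1283402 on the plus strand. It had 10 and 13 counts in HT29 siCon and 5 and 8 in HT29 siPrdx2, with a log2 fold change of -0.84 (SE 0.49, 95% interval -1.88 to 0.20, adjusted p = 0.274, edgeR). In SW480 libraries it had 2, 0, 0 and 3 counts. The antisense RNA MUC5B-AS1 overlaps MUC5B, and the library kit does not mark strand, so reads from the pair cannot be told apart.

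The 3 trefoil factor genes lie side by side on the minus strand of chromosome 21 (GRCh37), TFF3 from 43731777 to 43735519, TFF2 from 43766466 to 43771106 and TFF1 from 43782391 to 43786644. TFF3 was the most abundant of them in HT29 cells, with 38 and 54 counts in siCon and 52 and 45 in siPrdx2, at 8.31, 12, 11.3 and 10.5 TPM. The siPrdx2 values fell between the siCon values, and the log2 fold change was 0.043 (SE 0.22, 95% interval -0.43 to 0.51, adjusted p = 0.926, edgeR). TFF3 had 3 and 4 counts in SW480 siCon and 6 and 6 in SW480 siPrdx2, a ratio per total of 1.63 with an exact interval of 0.592 to 4.89.

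TFF1 had 11 and 7 counts in HT29 siCon and 4 and 9 in HT29 siPrdx2, at 5.49, 3.55, 1.99 and 4.79 TPM. The groups overlapped, and the ratio per total was 0.720 (exact interval 0.324 to 1.55). In SW480 cells TFF1 had 0 counts in each of the 4 libraries, which allows up to 0.309 to 0.339 CPM. TFF2 had 5 and 3 counts in HT29 siCon, 3 and 2 in HT29 siPrdx2, 3 and 2 in SW480 siCon and 2 and 1 in SW480 siPrdx2. TFF1 and TFF2 were under the count filter in every comparison, and the ratio for TFF2 after knockdown was 0.623 in HT29 cells (0.160 to 2.16) and 0.571 in SW480 cells (0.0887 to 2.93), intervals that leave both directions possible.

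**Figure D3:**
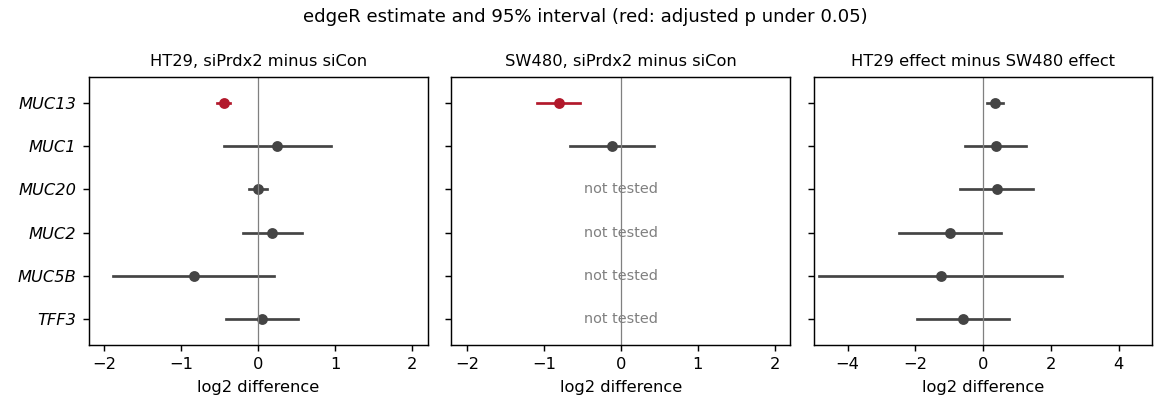
edgeR estimates (points) with 95% intervals (lines) on the log2 scale (x axis) for the 6 members (y axis) tested in HT29 cells, in SW480 cells and for the difference of the effects. MUC13 alone is past the threshold, at -0.45 in HT29 and -0.81 in SW480 cells, and 4 members were not tested in SW480 cells.

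Without knockdown, HT29 cells held more MUC13 and less MUC1 than SW480 cells, and line, medium and preparation cannot be told apart. In the fit of HT29 siCon against SW480 siCon, 67.5% of 14346 genes were called, and 6 members passed the filter. MUC2, MUC5B, MUC20 and TFF3 had passed it only through HT29 libraries and so had to differ, and their calls say nothing about the members. For MUC13, which had high counts in both lines, HT29 siCon was higher by 1.94 on the log2 scale (SE 0.11, adjusted p = 8.92e-07, edgeR). MUC1 was lower in HT29 siCon, with a log2 difference of -1.19 (SE 0.30, adjusted p = 0.00769, edgeR), and without the second HT29 siCon library it was -0.90 and was not called (adjusted p = 0.0704).

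MUC20 had the highest count ratio among the members with counts in both lines, with 1364 counts in HT29 siCon against 11 in SW480 siCon, a ratio per total of 116.6 (exact interval 64.9 to 234.1). The ratio was 17.5 for MUC2 (7.81 to 48.8), 12.4 for TFF3 (5.76 to 31.6) and 10.8 for MUC5B (2.67 to 94.6), and these intervals cover counting error only. The intervals of MUC20 and MUC5B overlap. Without the first or the second SW480 siCon library, the fitted log2 difference was 3.43 or 5.52 for MUC2, against 4.17 with both, and 6.53 or 2.33 for MUC5B, against 3.37 with both. TFF1 was at least 2.81-fold higher in HT29 siCon, taking 3 counts per library as the floor in SW480 siCon. The intervals of MUC4 (0.590 to 9.40) and TFF2 (0.434 to 5.84) include equal levels.

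Genes that build, modify or accompany mucus were read from lists, each beside the median log2 fold change of all tested genes, -0.0005 in HT29 and 0.0022 in SW480 cells. Of 22 tested genes of mucin O-glycosylation, 5 fell and 1 rose in HT29 cells (median -0.015), and 1 of 16 tested in SW480 cells fell (median -0.11), beside 17.6% and 3.3% of all genes called. DESeq2 and limma called 4 of the 22 in HT29 cells. GALNT7, a GalNAc transferase that acts on partly glycosylated mucin peptides, was lower in both lines. It was at 47.1 and 51.0 TPM in HT29 siCon against 39.7 and 38.4 in siPrdx2 (-0.39 on the log2 scale, adjusted p = 6.01e-05, edgeR), and at 41.3 and 35.0 TPM in SW480 siCon against 20.9 and 21.7 in siPrdx2 (-0.93, adjusted p = 0.0104, edgeR). GALNT12, another GalNAc transferase, fell by 0.39 on the log2 scale in HT29 cells, and B3GNT3, which extends core O-glycans, fell by 0.31. In SW480 cells GALNT12 was at 0.0079 and B3GNT3 at 0.36 on the log2 scale, and neither passed the test. The call of GALNT7 in SW480 cells was lost without the first or the second siPrdx2 library (adjusted p = 0.104 and 0.0772, edgeR), and that of B3GNT3 in HT29 cells without the first siCon or the second siPrdx2 library (adjusted p = 0.0658 and 0.0768, edgeR).

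Among the transcription factors of goblet cells, 3 of 9 tested genes rose and 1 fell in HT29 cells (median 0.12), and in SW480 cells edgeR, DESeq2 and limma called 0 of 9, with 4 at an unadjusted p under 0.05 in edgeR (median 0.044). Of all genes 17.6% were called in HT29 cells, and 24.4% had an unadjusted p under 0.05 in SW480 cells. In HT29 cells DESeq2 called 3 of the 9 and limma 5 or 6. SPDEF, an ETS factor that drives goblet cell maturation, was at 45.1 and 47.7 TPM in HT29 siCon and at 34.0 and 32.1 TPM in siPrdx2, which is -0.55 on the log2 scale (adjusted p = 7.08e-05, edgeR). The pioneer factors FOXA3 and FOXA1 rose by 0.40 and 0.24 on the log2 scale. SPDEF thus moved in the opposite direction to the FOXA genes, and it was at 0 in SW480 cells. The call of FOXA3 was lost without the second siCon or the first siPrdx2 library (adjusted p = 0.270 and 0.173, edgeR).

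Of the genes of mucus assembly and secreted partners, 2 of 15 tested fell in HT29 cells (median 0.015) and 1 of 11 rose in SW480 cells (median 0.13), beside 9.82% of all genes called lower in HT29 cells and 1.22% called higher in SW480 cells. AGR2, a protein disulfide isomerase family member of the endoplasmic reticulum that MUC2 production needs, was at 916.7 and 871.9 TPM in HT29 siCon and at 823.8 and 784.8 TPM in siPrdx2 (-0.22 on the log2 scale, adjusted p = 0.000193, edgeR). BCAS1 fell by 0.29 on the log2 scale in the same cells. WFDC2, a secreted protein with protease inhibitor domains, rose by 0.91 on the log2 scale in SW480 cells, from 48.8 and 62.4 to 112.8 and 109.1 TPM (adjusted p = 0.0321, edgeR), a call that was lost without the first or the second siPrdx2 library (adjusted p = 0.185 and 0.127, edgeR).

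Genes of gastric mucous cells were mostly under the count filter, with 4 of 12 tested in HT29 and 1 in SW480 cells. In HT29 cells 3 of the 4 fell and 1 rose (median -0.44), where 17.6% of all genes were called. limma called 3 of the 4, and DESeq2, which gave no adjusted p for CTSE and PSCA, called 0 with all 4 at an unadjusted p under 0.05. PSCA, a surface antigen anchored by a lipid, fell by 0.63 and CTSE, the aspartic protease cathepsin E, by 0.60 on the log2 scale, while ANXA10, an annexin of gastric epithelium, rose by 0.30. Without the second HT29 siCon library PSCA was not called (adjusted p = 0.0630, edgeR).

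Of the other mucins, CD164, a sialomucin, was the 1 of 5 tested genes called in HT29 cells (-0.15 on the log2 scale, adjusted p = 0.000967, edgeR), and limma on the TPM scale did not call it (adjusted p = 0.114 and 0.115). In SW480 cells 0 of 4 were called by edgeR, DESeq2 or limma, and 3 had an unadjusted p under 0.05 in edgeR, beside 24.4% of all genes. These 3 are named here after their values were seen. MUC12 was at 0.79 (SE 0.33, adjusted p = 0.183, edgeR) on the log2 scale. MCAM, a cell adhesion molecule kept on this list, was at 0.30 (SE 0.10, adjusted p = 0.126, edgeR). Both went in the opposite direction to the third, MUC16. MUC16, the large membrane mucin that carries the CA125 antigen, had 43 and 61 counts in SW480 siCon and 29 and 20 in siPrdx2, with an estimate of -1.20 (SE 0.29, adjusted p = 0.0570, edgeR). Both siPrdx2 libraries were below both siCon libraries, and it was called with the GC offset (adjusted p = 0.0141, edgeR) but not on the TPM scale.

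In the test between the lines, edgeR, DESeq2 and limma called 0 genes of these lists. Genes such as SPDEF, AGR2 and ANXA10, at 0 in SW480 cells, could not be called there, with edgeR SEs of 869, 252 and 337. The lack of calls therefore does not show that the lines respond alike. The number at an unadjusted p under 0.05 in edgeR was 6 of 22 for O-glycosylation, 2 of 5 for the other mucins, 2 of 5 for gastric mucous cells, 1 of 16 for mucus assembly and 0 of 10 for the transcription factors, beside 19.2% of all genes. When all 8 libraries were fitted together, so that HT29 and SW480 duplicates shared 1 estimate of the spread, 185 genes were called in HT29 cells in place of 2279. Of the HT29 genes named here from the 5 mucus lists, GALNT12 kept its call in that fit and the others, from SPDEF (adjusted p = 0.0706) to CD164 (adjusted p = 0.478, edgeR), did not, while MUC13 did (adjusted p = 0.00864, edgeR).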

How the data were processed

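Messenger RNA was sequenced from 8 libraries, 2 for each siRNA in HT29 and in SW480 cells, grouped by the sample labels. Paired-end reads were aligned by the authors to hg19, and RSEM gave the deposited values, per gene symbol an expected count (2.93% to 3.54% of values per library are not whole), a TPM value, an FPKM value and an effective length. FPKM was used only to check the TPM, and the authors' own differential testing was not used. Reads that RSEM divides between transcripts or near copies, and the repeats of large mucin genes, can move the counts of the members.

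Rounded counts were compared within a line by edgeR 4.0.16 in R 4.3.3 (quasi-likelihood test, TMM normalization, a filter of 10 or more counts in 2 or more libraries, Benjamini-Hochberg adjustment over all tested genes, threshold 0.05). The difference between lines was tested in a fit of all 8 libraries and the baseline in the 4 siCon libraries. Alternatives were DESeq2 1.42.0, limma 3.58.1 with a pseudocount of 1 or 0.1 on log2 TPM, RLE normalization, a replicate block, no filter, a loess GC offset (span 0.5, 89.5% of symbols with a GC value), a robust prior, a fit of all 8 libraries and leaving out each library, where the lone library is assumed to vary like the other group. Count ratios carry exact 95% intervals. Named were all members and, per list and line, up to 3 called genes with the largest change and a mean of at least 5 CPM. The members and lists were chosen with earlier results of these data known. The fits were tested on simulated counts.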

Additional observations from a re-analysis of the deposited data

How the results depend on the processing

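MUC13 was lower after knockdown under all 14 alternatives in each line. The log2 fold change ran from -0.47 to -0.38 in HT29 cells with every call kept, and from -0.81 to -0.70 in SW480 cells under the 10 alternatives that keep all libraries, with an adjusted p of up to 0.0492. Leaving out single libraries gave 0 to 1 members changed in SW480 cells, 0 to 1 members with a different effect between lines and 1 to 6 members different between the siCon groups. In the last case 2 members were tested without an HT29 siCon library, since the filter then removes the others. With the replicate block, 1 member was called in each line and 0 for the difference. It raised the genes called from 2279 to 2889 in HT29 and from 466 to 1727 in SW480 cells. The same-numbered libraries share a number only (correlation of deviations 0.103 and 0.121). Small estimates turned sign without passing the test. MUC20 in HT29 cells was 0.0006 with RLE normalization, 0.0016 with no filter, 0.0012 with DESeq2, 0.061 and 0.063 with limma, 0.0027 with all 8 libraries and -0.025 to 0.030 without single libraries, with 0.017 among them. Without single libraries, MUC1 in HT29 cells ran from -0.018 to 0.57 (also -0.0089), TFF3 from -0.20 to 0.33 (also -0.0062), MUC1 in SW480 cells from -0.30 to 0.085 and the difference for MUC5B from -4.48 to 2.35. MUC1 in SW480 cells was 0.13 and 0.14 with limma. The baseline of MUC5B was 0.17 and was not called with limma on log2(TPM + 1). Counts of called genes moved by more than 1.5 times in HT29 cells to 853 with DESeq2 and 185 with all 8 libraries. In SW480 cells they moved to 2243 with the GC offset, 2902 with the GC offset and block, 2415 with all 8 libraries, 214 and 177 with limma, and 87 to 7364 without single libraries. For the difference, with 166 in the main test, they were 298 with DESeq2, 267 with no filter, 960 and 803 with the GC offset, 103 and 43 with limma, and 6 to 5237 without single libraries. limma on log2(TPM + 0.1) shifted the baseline median of all genes from -0.045 to -0.16. The causes were not tested. Members under 10 counts per library were limited by depth.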
